A study of Homo sapiens with 22 samples.

Results

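RMC-4550 inhibits SHP2, the protein phosphatase that PTPN11 encodes, and was tested here on tumours grown from H2110, a human lung adenocarcinoma cell line. Of the 22 tumours of the series, 10 belong to the comparison described here, 4 treated with RMC-4550 and 6 with Vehicle, taken by the treatment in their labels. The other 12 tumours received RMC-7977, an inhibitor of active RAS (10 mg/kg), or the MEK inhibitors trametinib (0.3 mg/kg) and cobimetinib (3 mg/kg), 4 tumours each. By its title the study asked whether RIT1, a GTPase related to RAS, can be acted on in this cancer. H2110 cells were injected, and dosing began once tumours measured about 300 mm³. RMC-4550 was given by mouth at 30 mg/kg for 3 days, and Vehicle by mouth for the same 3 days, and the genotype of all 10 tumours is labelled WT. The model is 1 cell line, and the host that carried the tumours is not named. The labels call the replicates separate tumours without saying whether each had its own animal. The p-values therefore reflect only how much these samples vary, and part of that may be technical.

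SHP2 is recruited to activated receptor tyrosine kinases and to docking proteins such as GAB1, where it helps the exchange factor SOS1 to load RAS with GTP. RAS then switches on the kinase cascade of RAF, MEK and ERK, the MAPK pathway. ERK induces genes for transcription factors and also for phosphatases and Sprouty proteins that damp the pathway again, and the RNA of such genes is a common readout of pathway output.

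Each library held 11951272 to 15888488 counted reads in the RMC-4550 group and 11160546 to 17265754 in the Vehicle group. Levels are given below as CPM, a gene's counts scaled to the same library total. They follow the order of replicates 1 to 4 for RMC-4550, and are the lowest, the median and the highest of the 6 tumours for Vehicle. Replicate 1 of each group stood apart from the other 8 libraries. The median correlation of log2 CPM with the other 9 libraries was 0.920 in RMC-4550 replicate 1 and 0.9225 in Vehicle replicate 1, against 0.967 to 0.977 in the other 8, and these 2 libraries correlated at 0.969 with each other. Across genes, GC content was rank-correlated with a library's departure from the mean of all 10. The correlation was −0.608 in RMC-4550 replicate 1 and −0.5545 in Vehicle replicate 1. It was 0.0757 to 0.302 in the other RMC-4550 libraries and 0.3305 to 0.450 in the other Vehicle libraries. The groups therefore differed in it, without overlap, also once both replicate 1 libraries were left out. Mitochondrially encoded genes took 5.94% and 4.80% of the counts of these 2 libraries, against 8.27% to 11.8% elsewhere, and ribosomal protein genes took 9.23% and 6.92%, against 3.18% to 5.24%. What sets them apart was not tested. For many of the genes named, though not for all, the log2 fold change without both libraries is given as well. All 8 epithelial and lung adenocarcinoma markers checked had enough counts to be tested. Their summed level was 2964 to 4416 CPM in the RMC-4550 tumours and 4631 to 5555 CPM in the Vehicle tumours. The keratins KRT7, KRT8, KRT18 and KRT19 made up most of that sum, so it says little of the lung markers NKX2-1 and NAPSA.

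The RNA of DUSP6, the phosphatase that removes the activating phosphates from ERK, fell under RMC-4550, and it was the only gene to pass the test. DUSP6 (ENSG00000139318, hg38 chromosome 12, 89347232 to 89353271) was at 1.12, 1.87, 0.957 and 2.47 CPM in the RMC-4550 tumours, against 8.07, 21.2 and 25.8 CPM in the Vehicle tumours. Every RMC-4550 tumour was far below every Vehicle tumour. The log2 fold change of RMC-4550 over Vehicle was −3.51 ± 0.39 (SE), an 11.4-fold lower level, with an adjusted p of 0.0149 (edgeR quasi-likelihood F-test, adjusted over the 16459 genes tested by the Benjamini-Hochberg method). Without the 2 libraries that stood apart it was −3.35 ± 0.45, which just missed the threshold of 0.05 (edgeR quasi-likelihood adjusted p = 0.0534). Leaving out single libraries also ended the call of DUSP6, with an edgeR quasi-likelihood adjusted p of 0.0727 without RMC-4550 replicate 1, 0.0901 without replicate 2 and 0.130 without replicate 3, and of 0.0715 without Vehicle replicate 6 and 0.0591 without Vehicle replicate 7. In bulk tumour RNA, fewer cells of a type and less RNA per cell cannot be told apart.

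Of the 16459 genes tested, 1 passed and was lower (0.00608%), and none was higher. At an unadjusted p under 0.05 by edgeR there were 864 genes (5.25%), 546 higher (3.32%) and 318 lower (1.93%). By DESeq2 34 genes were higher (0.207%) and 23 lower (0.14%) at an adjusted p under 0.05. By limma-voom with library weights 39 were higher (0.237%) and 11 lower (0.0668%), with 29 genes called by both tools. Without the 2 libraries that stood apart no gene passed in edgeR, but 2238 genes (13.4%) had an unadjusted p under 0.05, 1082 higher (6.47%) and 1156 lower (6.91%). The GC correlation differed between the groups in that fit too, and with an offset for GC content 1575 genes were at that level. Its share in these differences was not tested. When single libraries were left out, the number at an unadjusted p under 0.05 was highest without Vehicle replicate 1, at 3051 genes. It was lowest without RMC-4550 replicate 1, at 539 genes. Among all genes tested, 152 (0.924%) had every RMC-4550 tumour above every Vehicle tumour and 80 (0.486%) had every one below. The replicate number was also fitted as a block, though the labels do not say what a shared number means. Only numbers 1, 2 and 3 occur in both groups, so that estimate rests on 3 pairs of tumours, 1 of them the 2 libraries apart, and the other 4 tumours add nothing to it. With the block, 15 genes passed (0.0911%), 12 higher (0.0729%) and 3 lower (0.0182%), and 9.72% of genes had an unadjusted p under 0.05. DUSP6 was among the 15 (−3.31 ± 0.40, edgeR quasi-likelihood adjusted p = 0.0237).

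The 250 bases upstream of the RefSeq start of DUSP6 and of EPHA2, a receptor gene of the same MAPK output list, are shown because they bear on the sequence motifs of factors that act at the end of the pathway. Both are on the minus strand of GRCh38.p14 in RefSeq, DUSP6 at chr12:89352502-89352751 and EPHA2 at chr1:16156070-16156319, and both are written from 5′ to 3′ in the direction of the gene. Both overlap the gene as the deposited annotation bounds it, since the RefSeq start differs. Capitals mark GGAA, the core bound by ETS transcription factors, or its reverse complement TTCC in DUSP6. In EPHA2 they mark TGACGTCA, the cAMP response element, and TGAATGAA, a site of the repressor CIC, which ERK signalling inactivates.
DUSP6: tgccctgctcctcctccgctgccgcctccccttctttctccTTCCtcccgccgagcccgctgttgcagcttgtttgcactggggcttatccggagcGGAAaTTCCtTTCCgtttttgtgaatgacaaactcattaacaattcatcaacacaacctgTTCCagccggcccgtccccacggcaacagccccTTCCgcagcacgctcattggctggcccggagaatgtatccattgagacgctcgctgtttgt
EPHA2: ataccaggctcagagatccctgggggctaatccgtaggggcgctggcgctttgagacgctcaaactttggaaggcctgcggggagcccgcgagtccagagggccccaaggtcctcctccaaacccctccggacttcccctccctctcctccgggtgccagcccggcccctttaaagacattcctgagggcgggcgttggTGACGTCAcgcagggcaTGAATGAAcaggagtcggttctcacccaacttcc
The DUSP6 window held 6 GGAA or TTCC matches, and 92.7% of 15446 windows of the same length, from 10717 tested genes, held at least 1. Of 9 tested MAPK output genes 5 had a window (DUSP6, EPHA2, PHLDA1, SPRY2 and SPRY4), 7 windows in all. Searched on both strands, TGACGTCA was in 2.39% of the 15446 windows and TGAATGAA or TGAATGGA in 1.51%, and of the 5 genes only EPHA2 held either. Neither the AP-1 motif TGANTCA (4.76% of all windows) nor the longer ETS motif CCGGAAGT (5.92%) was in any of the 7 windows. A match describes the letters only.

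MAPK output genes, a list of 10 ERK-responsive genes, had lower values throughout. All but EPHA4 had enough counts to be tested. Of these 9, 1 passed the test (DUSP6) and 8 did not, but all 9 had an unadjusted p under 0.05 in the lower direction, against 1.93% of all genes. Their median log2 fold change was −1.10, against −0.0045 over all genes tested. It was −0.92 without the 2 libraries apart, where all 9 again had an unadjusted p under 0.05 (6.91% of all genes lower). With the replicate number as a block it was −0.73, and 8 of the 9 were lower at that level (4.2% of all genes). The mean log2 CPM of the 9 genes was 2.77, 3.75, 3.28 and 3.44 in the RMC-4550 tumours and 4.36 to 5.34 in the 6 Vehicle tumours. The groups did not overlap, and RMC-4550 replicate 1 was the lowest tumour. Taken gene by gene, 4 of the 9 (DUSP6, SPRY4, SPRY2 and PHLDA1) had no overlap, against 0.486% of all genes in the lower direction. The group means were 3.31 ± 0.41 in the RMC-4550 tumours and 4.81 ± 0.38 in the Vehicle tumours (SD), a difference of −1.50, or −1.41 without the 2 libraries apart. Tumours with the same replicate number differed by −1.59 for number 1, −0.64 for number 2 and −1.59 for number 3.

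Beside DUSP6 the list holds 3 feedback inhibitors. SPRY4, a Sprouty protein that blocks signalling from receptors to RAS (ENSG00000187678, hg38 chromosome 5, 142310427 to 142326455), was at 0.777, 0.643, 0.368 and 0.494 CPM in the RMC-4550 tumours and 1.94, 3.10 and 5.31 CPM in the Vehicle tumours. Its groups did not overlap in any tumour, but these are few reads, 5 to 93 per library. The log2 fold change was −2.56 ± 0.39 (edgeR quasi-likelihood adjusted p = 0.0895), and −2.83 ± 0.43 without the 2 libraries apart (adjusted p = 0.0534). DESeq2 (adjusted p = 5.45e-06) and limma-voom (adjusted p = 0.0231) both called it. SPRY2, its relative, was at 14.2, 14.2, 16.8 and 19.0 CPM in the RMC-4550 tumours and 19.3, 22.1 and 30.5 CPM in the Vehicle tumours. Here too every RMC-4550 tumour was below every Vehicle tumour, by a smaller margin (−0.56 ± 0.18, edgeR quasi-likelihood adjusted p = 0.733, and −0.57 ± 0.16 without the 2 libraries apart). DUSP4, a nuclear ERK phosphatase, was at 129, 352, 256 and 262 CPM in the RMC-4550 tumours and 310.1, 422 and 499.9 CPM in the Vehicle tumours. RMC-4550 replicate 1 was far below the rest and replicate 2 within the Vehicle range (−0.74 ± 0.25, edgeR quasi-likelihood adjusted p = 0.733, and −0.61 ± 0.14 without the 2 libraries apart).

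The ERK-induced transcription factor genes ETV4 and ETV5 differed in how well the groups separated. ETV4 was at 1.99, 7.46, 4.93 and 3.88 CPM in the RMC-4550 tumours and 6.85, 20.3 and 29.3 CPM in the Vehicle tumours. Overlap was between RMC-4550 replicate 2 and the lowest Vehicle tumour, replicate 1, and none was left without the 2 libraries apart. Its log2 fold change was −2.02 ± 0.44 (edgeR quasi-likelihood adjusted p = 0.434) and −1.95 ± 0.33 without them, and −1.33 ± 0.30 with the replicate number as a block. ETV5 was at 3.63, 8.88, 8.10 and 3.39 CPM in the RMC-4550 tumours and 6.62, 12.9 and 18.5 CPM in the Vehicle tumours, with 2 treated tumours inside the Vehicle range. It had a log2 fold change of −1.10 ± 0.34, −0.92 ± 0.36 without the 2 libraries apart, but −0.66 ± 0.39 with the block, where the unadjusted edgeR p was 0.123.

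The last 3 tested genes of the list are PHLDA1, CCND1 and EPHA2. PHLDA1, a pleckstrin homology domain protein, was at 1.64, 3.54, 1.55 and 3.46 CPM in the RMC-4550 tumours and 3.63, 8.94 and 18.5 CPM in the Vehicle tumours (−1.91 ± 0.42, edgeR quasi-likelihood adjusted p = 0.434, and −1.81 ± 0.49 without the 2 libraries apart). No tumour overlapped, though the gap between the highest treated and the lowest Vehicle tumour was small. CCND1, the G1 cyclin D1, was at 57.9, 118, 127 and 88.0 CPM in the RMC-4550 tumours and 106, 146 and 206 CPM in the Vehicle tumours (−0.64 ± 0.24). EPHA2, an ephrin receptor tyrosine kinase, was at 17.6, 61.3, 34.8 and 53.4 CPM in the RMC-4550 tumours and 25.8, 83.2 and 108 CPM in the Vehicle tumours (−0.87 ± 0.39). For both genes the lowest tumour of each group was replicate 1, and the groups overlapped only through the 2 libraries apart. Without these libraries the log2 fold changes were −0.55 ± 0.15 for CCND1 and −0.81 ± 0.20 for EPHA2.

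**Figure D1:**
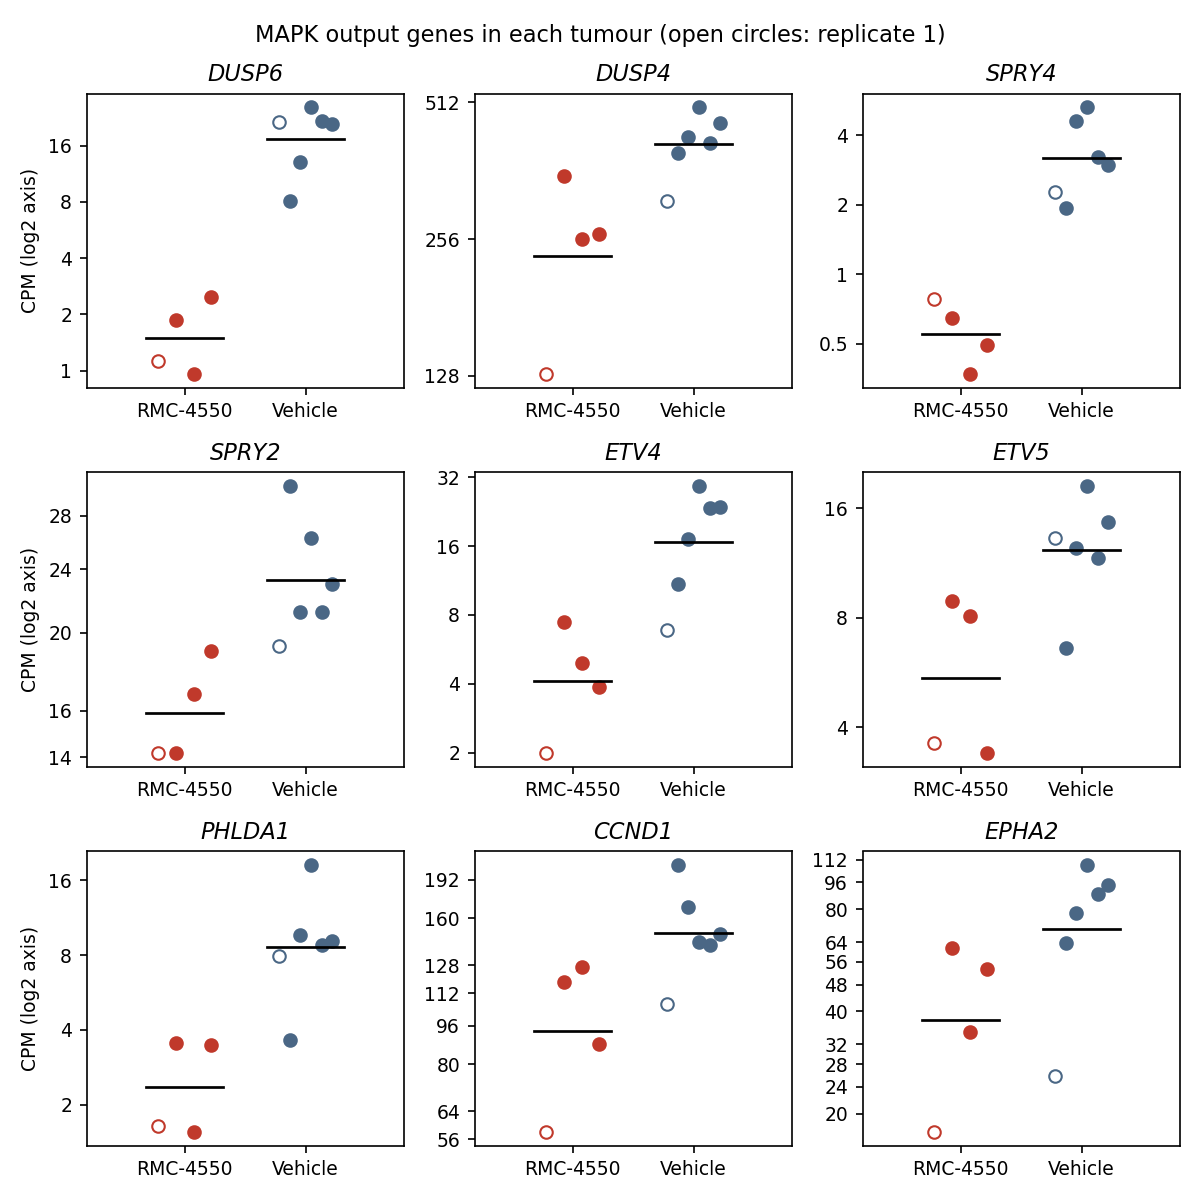
CPM of the 9 tested MAPK output genes in each tumour, on a log2 axis, with 4 RMC-4550 tumours on the left and 6 Vehicle tumours on the right of each panel. Bars are geometric means and open circles are replicate 1 of each group; DUSP6, SPRY4, SPRY2 and PHLDA1 show no overlap between the groups.

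Other negative feedback genes of ERK signalling were closer to the Vehicle level than the MAPK output list. Of 14 tested, none passed and 2 had an unadjusted p under 0.05 and were lower, against 1.93% of all genes. Their median log2 fold change was −0.21, and 11 of the 14 were negative. With the replicate number as a block 4 of the 14 were lower at that level, against 4.2% of all genes. SPRY1, another Sprouty gene, was at 3.11, 4.37, 3.75 and 5.36 CPM in the RMC-4550 tumours and 5.13, 7.12 and 12.3 CPM in the Vehicle tumours (−0.89 ± 0.30). SPRED1, which brings the RAS inhibitor neurofibromin to the membrane, was at 8.81, 11.3, 8.91 and 7.76 CPM in the RMC-4550 tumours and 9.31, 12.1 and 17.1 CPM in the Vehicle tumours (−0.47 ± 0.21). In both genes the groups overlapped.

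Immediate early genes respond to growth factors within minutes, and here they lay on both sides of the Vehicle level. Of 15 tested none passed, 5 had an unadjusted p under 0.05 in the lower direction (1.93% of all genes) and 1 in the higher (3.32%), and the median log2 fold change was −0.18. FOSL1, an AP-1 subunit that ERK stabilises, was at 1.99, 2.44, 3.02 and 2.05 CPM in the RMC-4550 tumours and 3.79, 7.93 and 12.6 CPM in the Vehicle tumours. All 4 treated tumours were below all 6 Vehicle tumours (−1.68 ± 0.36, edgeR quasi-likelihood adjusted p = 0.434). The log2 fold change of FOSL1 was −1.75 ± 0.34 without the 2 libraries apart and −1.001 ± 0.32 with the replicate number as a block. EGR1, a zinc finger factor induced by ERK, was at 1.73, 7.08, 1.32 and 3.81 CPM in the RMC-4550 tumours and 2.83, 11.0 and 18.1 CPM in the Vehicle tumours (−1.64 ± 0.52). Its lowest Vehicle value belonged to replicate 1, below 2 of the 4 treated tumours. MYC, which drives cell growth, was at 65.0, 74.8, 81.3 and 79.4 CPM in the RMC-4550 tumours and 77.8, 110.4 and 149.6 CPM in the Vehicle tumours (−0.54 ± 0.19, edgeR quasi-likelihood adjusted p = 0.745). ATF3, a stress-induced factor of the same list, lay the other way, at 97.9, 102, 54.1 and 143 CPM in the RMC-4550 tumours and 42.8, 53.8 and 62.8 CPM in the Vehicle tumours (0.89 ± 0.23). With the block 3 of the 15 genes were higher (5.51% of all genes) and 4 lower (4.2%) at an unadjusted p under 0.05.

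The genes of the pathway itself were close to the Vehicle level. Of 29 tested genes of SHP2, its docking partners, RAS proteins, RAF and MEK, none passed by edgeR and none had an unadjusted p under 0.05, with a median log2 fold change of 0.037 and a range of −0.38 to 0.36. PTPN11, whose protein RMC-4550 inhibits, was at 92.2, 102, 103 and 98.0 CPM in the RMC-4550 tumours and 68.6, 101 and 117 CPM in the Vehicle tumours (0.04 ± 0.17). RIT1 was at 184, 122, 118 and 132 CPM in the RMC-4550 tumours and 95.8, 115 and 148 CPM in the Vehicle tumours (0.23 ± 0.18). For both genes the groups overlapped. GAB1 was at 30.0, 19.9, 22.2 and 30.0 CPM in the RMC-4550 tumours and 17.4, 20.2 and 23.1 CPM in the Vehicle tumours (0.34 ± 0.17), and SOS1 had a log2 fold change of 0.23 ± 0.14. MAP2K1 and MAP2K2, which encode MEK1 and MEK2, had −0.04 ± 0.19 and −0.08 ± 0.19, and HRAS had −0.15 ± 0.16. NRAS, with 0.36 ± 0.31, was at 182 CPM in RMC-4550 replicate 1 and 169 CPM in Vehicle replicate 1, the highest tumour of each group. Without these 2 libraries 4 of the 29 genes were higher and 1 lower at an unadjusted p under 0.05, where 6.47% and 6.91% of all genes were.

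Receptors and ligands upstream of SHP2 showed no passing gene. Of 17 tested receptor tyrosine kinases 14 were negative, against 50.6% of all genes, the median being −0.27, and 1 had an unadjusted p under 0.05 in the higher direction (3.32% of all genes) and 1 in the lower (1.93%). AXL, a receptor linked to resistance against kinase inhibitors, was at 9.41, 17.8, 16.1 and 29.4 CPM in the RMC-4550 tumours and 22.5, 34.6 and 47.5 CPM in the Vehicle tumours, with overlap (−0.87 ± 0.30). ERBB4, a receptor for neuregulins, was at 10.6, 10.0, 6.70 and 7.34 CPM in the RMC-4550 tumours and 1.19995, 2.51 and 9.04 CPM in the Vehicle tumours, also with overlap (1.201 ± 0.48). With the block 5 receptors were lower (4.2% of all genes) and 1 higher (5.51%) at an unadjusted p under 0.05. Of 8 tested ligands of the EGF receptor family, HBEGF was at 3.45, 4.37, 2.43 and 3.67 CPM in the RMC-4550 tumours and 2.02, 6.64 and 10.9 CPM in the Vehicle tumours (−0.87 ± 0.38). It alone had an unadjusted p under 0.05, which without the 2 libraries apart was 0.0675 by edgeR. AREG (−0.54 ± 0.45) and EREG (−0.64 ± 0.43) varied more within Vehicle, at 6.21 to 59.1 CPM and 9.52 to 81.5 CPM, than between the groups. With the replicate number as a block both turned to positive values, 0.54 ± 0.28 for AREG and 0.04 ± 0.37 for EREG. BTC, which encodes betacellulin, was at 0.44 ± 0.25.

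Among genes with higher RNA under RMC-4550 none passed by edgeR in the 10 tumours, and some passed by other tools or fits. Those given here were all picked by their values, BMP2, CD36 and SOCS2 as members of their lists with the smallest adjusted p and the others after their values were seen. HDAC9, a class II histone deacetylase (ENSG00000048052, hg38 chromosome 7, 18086949 to 19002416), was at 14.0, 10.0, 12.0 and 10.9 CPM in the RMC-4550 tumours and 2.68, 3.68 and 5.19 CPM in the Vehicle tumours. All treated tumours lay well above all Vehicle tumours. Its log2 fold change was 1.57 ± 0.22 (edgeR quasi-likelihood adjusted p = 0.0690) and 1.44 ± 0.23 without the 2 libraries apart. ZBTB20, a transcriptional repressor (ENSG00000181722, hg38 chromosome 3, 114314501 to 115147271), was at 7.69, 3.67, 4.20 and 8.47 CPM in the RMC-4550 tumours and 1.33, 1.48 and 2.05 CPM in the Vehicle tumours, with no overlap (1.93 ± 0.29, edgeR quasi-likelihood adjusted p = 0.0895, and 1.79 ± 0.32 without the 2 libraries apart). BMP2, a bone morphogenetic protein (ENSG00000125845, hg38 chromosome 20, 6767664 to 6780280), was at 78.7, 80.2, 129 and 63.8 CPM in the RMC-4550 tumours and 36.4, 41.6 and 44.4 CPM in the Vehicle tumours. The Vehicle tumours lay close together and all treated tumours above them (1.11 ± 0.19, edgeR quasi-likelihood adjusted p = 0.163, and 1.18 ± 0.18 without the 2 libraries apart). In a fit over all 22 tumours BMP2, CD36 and the lincRNA AJ009632.2 passed as higher (0.017%) and DUSP6 and MYEOV as lower (0.0113%), 5 genes in all (0.0283%), with an edgeR quasi-likelihood adjusted p of 0.0326 for BMP2.

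CD36, a scavenger receptor that takes up fatty acids (ENSG00000135218, hg38 chromosome 7, 80369575 to 80679277), was at 496, 205, 203 and 215 CPM in the RMC-4550 tumours and 60.5, 77.3 and 138 CPM in the Vehicle tumours. No tumour overlapped, and replicate 1 was the highest in each group. The log2 fold change was 1.62 ± 0.32 (edgeR quasi-likelihood adjusted p = 0.422) and 1.33 ± 0.22 without the 2 libraries apart. With the replicate number as a block it passed, at 1.60 ± 0.18 (edgeR quasi-likelihood adjusted p = 0.0194). Under RMC-7977 CD36 was at 195 to 242 CPM and ZBTB20 at 2.28 to 8.93 CPM, both also above every Vehicle tumour. SOCS2, a feedback inhibitor of cytokine and growth hormone receptors, was at 12.9, 6.43, 12.4 and 12.2 CPM in the RMC-4550 tumours and 2.30, 4.49 and 5.66 CPM in the Vehicle tumours (1.39 ± 0.28). HPGD, which inactivates prostaglandins, was at 21.2, 9.59, 11.6 and 11.0 CPM in the RMC-4550 tumours and 3.98, 4.71 and 8.58 CPM in the Vehicle tumours (1.31 ± 0.28). CD47, a cell-surface protein that macrophages read as a signal not to engulf the cell, was at 221, 174, 160.2 and 168 CPM in the RMC-4550 tumours and 101, 113 and 132 CPM in the Vehicle tumours (0.64 ± 0.15). Leaving out the 2 libraries apart gave log2 fold changes of 1.303 ± 0.30 for SOCS2, 1.17 ± 0.19 for HPGD and 0.56 ± 0.11 for CD47. In these 3 genes all treated tumours were above all Vehicle tumours, and edgeR's quasi-likelihood adjusted p was between 0.422 (SOCS2) and 0.457 (CD47). NAALADL2, a peptidase-like membrane protein, had the same order of the groups (0.94 ± 0.20, and 0.89 ± 0.15 without the 2 libraries apart). AJ009632.2, a lincRNA on chromosome 21, was at 25.6, 8.94, 16.6 and 9.67 CPM in the RMC-4550 tumours and 1.59, 2.96 and 6.39 CPM in the Vehicle tumours (2.14 ± 0.38, and 1.73 ± 0.36 without the 2 libraries apart), and passed with the block (2.75 ± 0.35, edgeR quasi-likelihood adjusted p = 0.0264). Among genes with lower RNA, MYEOV and CYP24A1 passed in some of the other fits. MYEOV, a gene amplified in some cancers, was at 26.1, 37.3, 29.3 and 28.7 CPM in the RMC-4550 tumours and 50.7, 60.7 and 69.8 CPM in the Vehicle tumours, with no overlap (−0.99 ± 0.17, edgeR quasi-likelihood adjusted p = 0.163, and −0.90 ± 0.14 without the 2 libraries apart). CYP24A1, which inactivates vitamin D, was at 6.31, 11.2, 6.18 and 19.7 CPM in the RMC-4550 tumours and 18.7, 29.6 and 36.6 CPM in the Vehicle tumours (−1.40 ± 0.35, and −1.32 ± 0.34 without the 2 libraries apart). It passed with the block (−1.50 ± 0.20, edgeR quasi-likelihood adjusted p = 0.0267). Across 14 other ways of fitting all tumours, 90 genes were called in at least 1 and 18 in at least 3, 11 higher and 7 lower. No gene was called in all 14, and DUSP6 was called in 13.

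**Figure D2:**
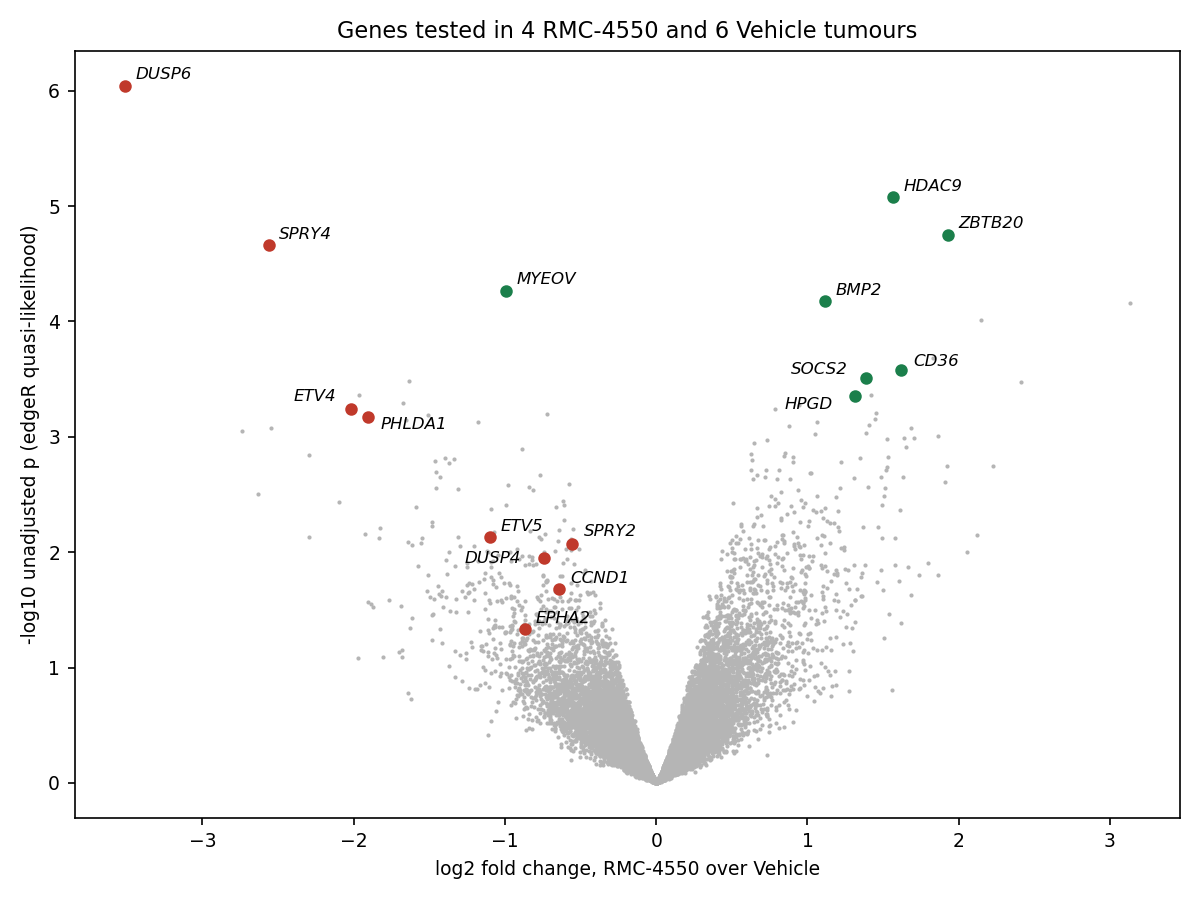
Log2 fold change of RMC-4550 over Vehicle on the x axis and −log10 of the unadjusted edgeR p on the y axis, 1 dot per gene tested. Red dots are the MAPK output genes and green dots other genes named in the text; DUSP6 at the upper left was the only gene to pass.

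**Figure D3:**
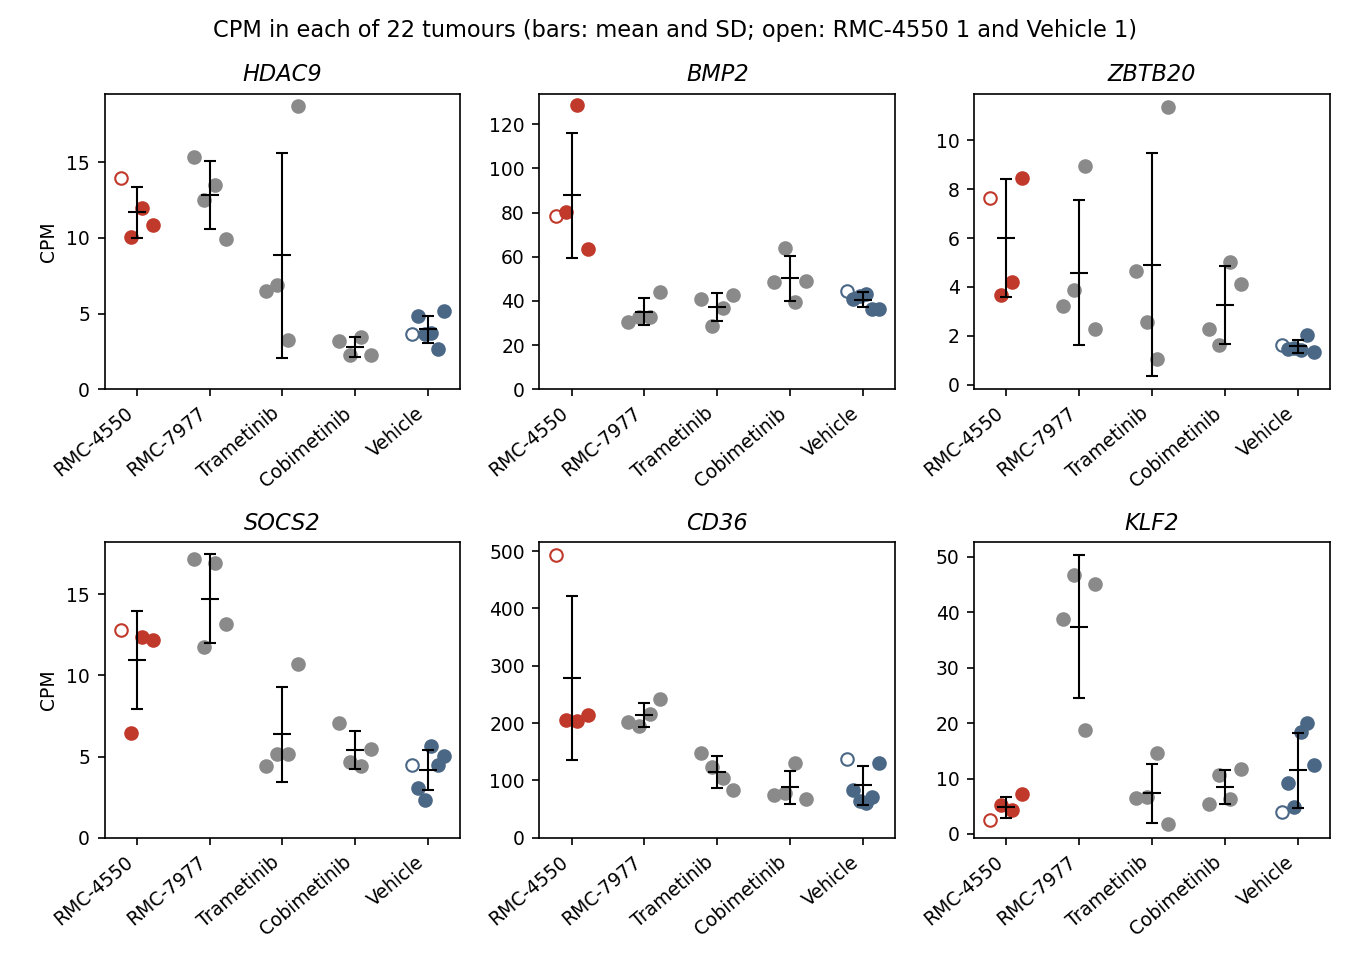
CPM of 6 genes in each of the 22 tumours by treatment, with RMC-4550 at the left, Vehicle at the right, bars for the mean and SD, and open circles for RMC-4550 replicate 1 and Vehicle replicate 1. BMP2 was highest under RMC-4550, HDAC9, SOCS2, CD36 and ZBTB20 were also above Vehicle under RMC-7977, and KLF2 was highest under RMC-7977.

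Targets of NRF2, the transcription factor of the antioxidant response, had a higher mean level in 3 of 4 RMC-4550 tumours than in any Vehicle tumour, though no gene passed. Of 15 tested, 14 had positive log2 fold changes against 49.4% of all genes, 7 had an unadjusted p under 0.05 in the higher direction against 3.32%, and the median was 0.48. The mean log2 CPM of the 15 genes was 8.14, 7.94, 7.95 and 7.60 in the RMC-4550 tumours and 7.01, 7.52 and 7.65 in the lowest, median and highest Vehicle tumour. RMC-4550 replicate 4 lay inside the Vehicle range, and RMC-4550 replicate 1, a library that stood apart, was the highest. The group means were 7.91 ± 0.22 in the RMC-4550 tumours and 7.43 ± 0.25 in the Vehicle tumours (SD), a difference of 0.48, or 0.44 without the 2 libraries apart. Genes at an unadjusted p under 0.05 numbered 9 without both libraries (6.47% of all genes higher) and 10 with the replicate number as a block (5.51%), but 1 without RMC-4550 replicate 1 alone (1.87%) and 12 without Vehicle replicate 1 alone (10.8%). The medians in these 4 fits were 0.48, 0.65, 0.42 and 0.61. The block compares only replicates 1 to 3 of each group. Vehicle replicates 1 to 3 had mean log2 CPM of 7.65, 7.01 and 7.25, and Vehicle replicates 5 to 7 had 7.55, 7.50 and 7.63.

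AKR1B10, an aldo-keto reductase, was at 410.0, 187, 237 and 176 CPM in the RMC-4550 tumours and 75.3, 138 and 177 CPM in the Vehicle tumours (0.92 ± 0.30, edgeR quasi-likelihood adjusted p = 0.733, and 0.66 ± 0.27 without the 2 libraries apart). GCLM, a subunit of the enzyme that starts glutathione synthesis, was at 203, 135, 139.6 and 85.8 CPM in the RMC-4550 tumours and 38.5, 75.0 and 130.2 CPM in the Vehicle tumours (0.82 ± 0.30). ME1, the malic enzyme that makes NADPH, was at 161, 94.7, 111 and 70.9 CPM in the RMC-4550 tumours and 56.3, 65.6 and 92.9 CPM in the Vehicle tumours (0.65 ± 0.22). AKR1C3 (0.89 ± 0.33) belongs to a family of close copies between which reads may be split. In these 4 NRF2 targets the groups overlapped, and RMC-4550 replicate 1 was the highest tumour. Redox genes outside the list, named after their values were seen, included GPX2, a glutathione peroxidase, at 129.8, 103, 137 and 89.1 CPM in the RMC-4550 tumours and 37.4, 59.4 and 96.6 CPM in the Vehicle tumours. GPX2 had a log2 fold change of 0.84 ± 0.26 and passed with the replicate number as a block (1.45 ± 0.15, edgeR quasi-likelihood adjusted p = 0.0194). Vehicle replicates 5 to 7 add nothing to that fit, and GPX2 was at 65.8 to 96.6 CPM there, against 37.4 to 53.0 CPM in Vehicle replicates 1 to 3. TRIM16L, a close copy of TRIM16, was at 241, 121, 159 and 108 CPM in the RMC-4550 tumours and 52.7, 92.3 and 98.6 CPM in the Vehicle tumours (0.96 ± 0.27), and also passed with the block (edgeR quasi-likelihood adjusted p = 0.0194). Its level was 98, 53 and 53 CPM in Vehicle replicates 1 to 3 and 87 to 98.6 CPM in Vehicle replicates 5 to 7. FTH1, the ferritin heavy chain, which has many pseudogene copies, was at 974, 749, 629.6 and 607 CPM in the RMC-4550 tumours and 315, 416 and 512 CPM in the Vehicle tumours, with no overlap (0.85 ± 0.21). FTH1 did not pass either way (edgeR quasi-likelihood adjusted p = 0.490, and 0.205 with the block).

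**Figure D4:**
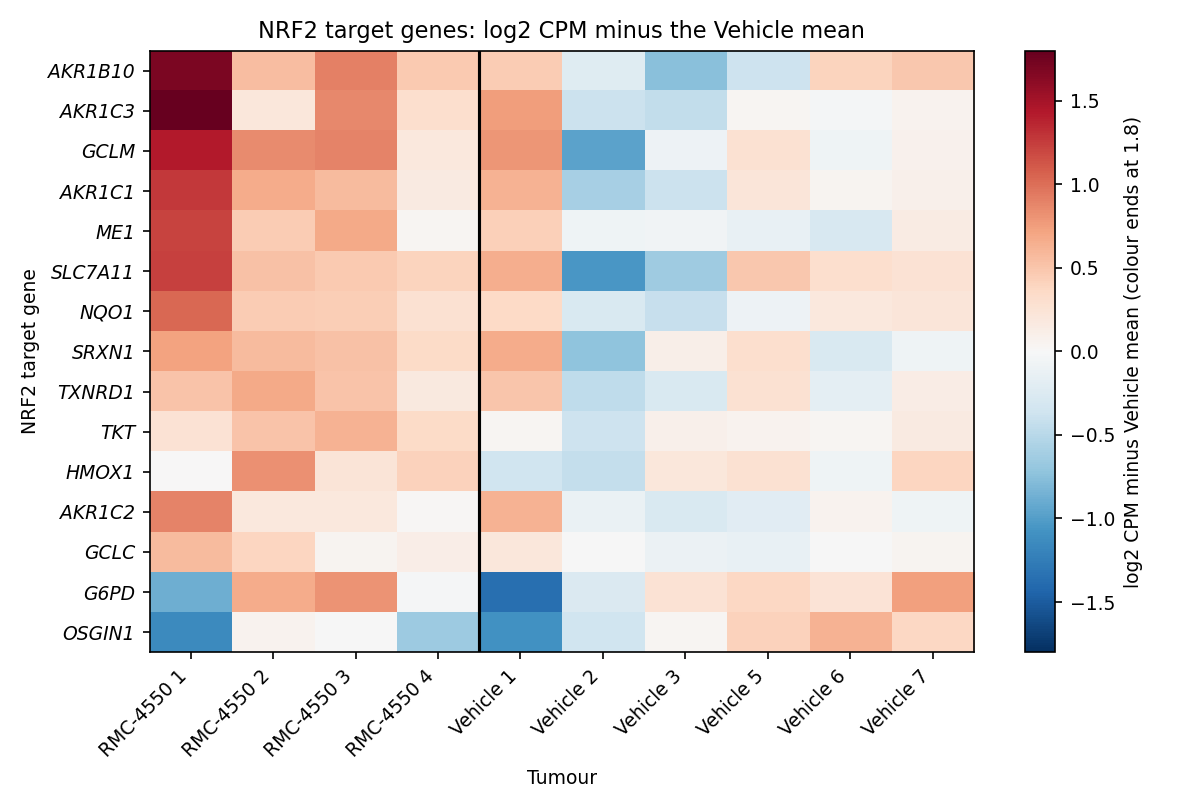
Log2 CPM of the 15 NRF2 target genes (rows) minus their mean in the 6 Vehicle tumours, with the 4 RMC-4550 tumours left of the line and the Vehicle tumours right of it. Red is higher and blue lower; RMC-4550 replicate 1 had the highest mean of all tumours, and Vehicle replicates 2 and 3 were the 2 lowest.

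Genes of cell division and growth did not pass. No gene had an unadjusted p under 0.05 among 28 of DNA replication (median log2 fold change −0.035), 26 of mitosis (−0.17), 22 of ribosome biogenesis (−0.15) and 24 of cholesterol synthesis (−0.11). Of the mitosis genes 20 of 26 were negative, with CDC20, which triggers anaphase, at −0.34 ± 0.18. Without the 2 libraries apart their median was −0.14 and with the replicate number as a block −0.010. Among 18 tested G1 cyclins, CDKs and CDK inhibitors CDK6, a partner of the D cyclins, was at 36.0, 20.8, 25.0 and 29.1 CPM in the RMC-4550 tumours and 8.94, 12.9 and 19.4 CPM in the Vehicle tumours. Every treated tumour was above every Vehicle tumour, a direction opposite to that of CCND1 (1.05 ± 0.24, edgeR quasi-likelihood adjusted p = 0.435, and 1.02 ± 0.20 without the 2 libraries apart).

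**Figure D5:**
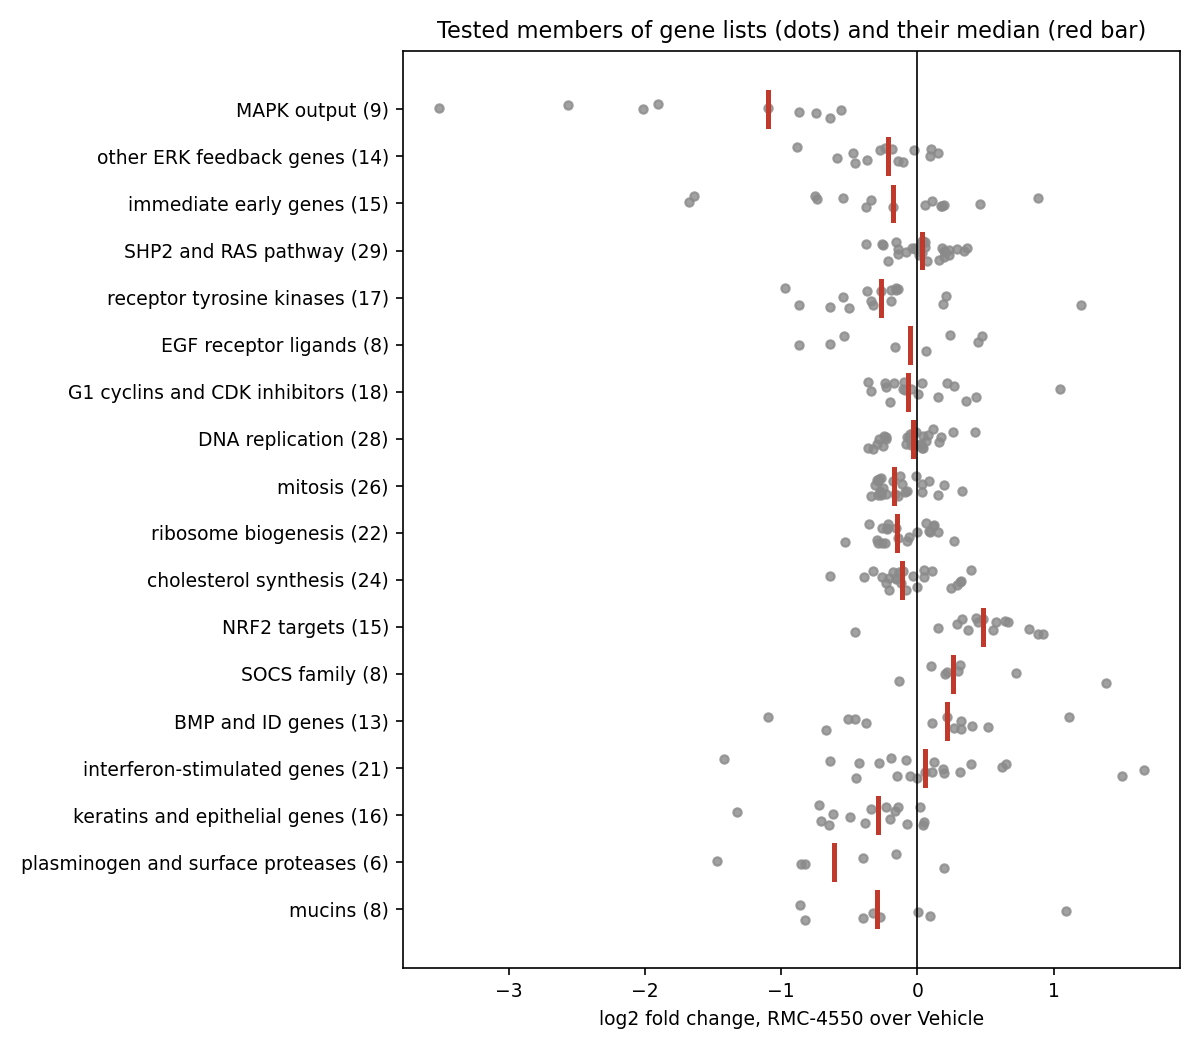
Log2 fold change of RMC-4550 over Vehicle for the tested members of 18 gene lists, 1 dot per gene, with a red bar at the median of the list and the number of tested genes in brackets. The MAPK output list lay wholly below 0 (median −1.10) and the NRF2 list mostly above it (median 0.48).

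Of 16 tested keratin and epithelial genes 13 were negative, against 50.6% of all genes, none passed and 3 had an unadjusted p under 0.05, all lower (1.93% of all genes), with a median log2 fold change of −0.29. KRT8, a keratin of simple epithelium, was at 901, 1263, 1094 and 1133 CPM in the RMC-4550 tumours and 1334, 1568 and 2393 CPM in the Vehicle tumours, with no overlap (−0.65 ± 0.21, edgeR quasi-likelihood adjusted p = 0.733, and −0.46 ± 0.15 without the 2 libraries apart). KRT18, its partner in filaments, was at 264, 449, 429.5 and 333 CPM in the RMC-4550 tumours and 310.3, 555 and 627 CPM in the Vehicle tumours (−0.49 ± 0.23). KRT6A, a keratin of stressed epithelium, was at 55.0, 198, 68.5 and 137 CPM in the RMC-4550 tumours and 49.5, 302 and 448 CPM in the Vehicle tumours (−1.32 ± 0.52), a wide spread within both groups. Among 6 tested genes of plasminogen activation and surface proteases, with a median of −0.61, PLAT, the tissue plasminogen activator, had −0.82 ± 0.28 and TFPI2, a protease inhibitor, −1.47 ± 0.58. With the block the log2 fold change of TFPI2 was −0.68 ± 1.02, and its lowest Vehicle tumour, at 5.73 CPM, lay below all treated ones. MUC15, 1 of 8 tested mucins, was at 10.7, 5.28, 4.71 and 7.76 CPM in the RMC-4550 tumours and 1.66, 3.44 and 4.47 CPM in the Vehicle tumours, with no overlap (1.09 ± 0.31, edgeR quasi-likelihood adjusted p = 0.618, and 0.92 ± 0.30 without the 2 libraries apart). The list of alveolar type 2 genes had 12 tested members and a median of −0.055, with 2 higher at an unadjusted p under 0.05 (3.32% of all genes). These were CD36 and HOPX, a marker of alveolar cells (0.78 ± 0.28). The surfactant genes SFTPB, SFTPA1, SFTPA2 and SFTPD did not reach that level. All 6 tested mesenchymal genes were negative, with a median of −0.41, and none had an unadjusted p under 0.05.

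Lists of secreted signals and their regulators held few members at that level. Of 13 tested BMP and ID genes none passed, and 3 were higher at an unadjusted p under 0.05 (3.32% of all genes). These were BMP2, ID3 (0.52 ± 0.17) and BAMBI (0.40 ± 0.18). Of the 13, 8 were positive and 5 negative. The negative ones included SMAD7 (−0.67 ± 0.43), SMAD6 (−0.51 ± 0.33), SMAD9 (−0.45 ± 0.31) and ID1 (−0.38 ± 0.44), none of them at that level. In the 9 tested WNT feedback genes DKK1, a secreted WNT inhibitor, was at 84.6, 111, 118 and 137 CPM in the RMC-4550 tumours and 48.1, 79.2 and 103 CPM in the Vehicle tumours (0.56 ± 0.21), while RNF43, which removes WNT receptors, had −0.74 ± 0.32. SOCS3, which blocks JAK kinases, was at 25.7, 36.4, 22.3 and 29.4 CPM in the RMC-4550 tumours and 6.29, 14.0 and 37.6 CPM in the Vehicle tumours (0.72 ± 0.44) and passed with the block (1.86 ± 0.24, edgeR quasi-likelihood adjusted p = 0.0267). The block rests on Vehicle replicates 1 to 3, where SOCS3 was at 6.29 to 8.5 CPM. Vehicle replicates 5 to 7, which add nothing to it, were at 19.5 to 37.6 CPM, a range that overlaps the treated tumours. The 8 SOCS genes had a median of 0.26. KLF2, a factor of vessel and immune cell quiescence, was at 2.59, 5.15, 4.34 and 7.20 CPM in the RMC-4550 tumours and 3.93, 10.9 and 20.04 CPM in the Vehicle tumours (−1.25 ± 0.47), and KLF9 had 0.45 ± 0.19. Of the 13 FOXO-linked genes FBXO32, a ubiquitin ligase, had 0.75 ± 0.30, and of the 14 apoptosis genes PMAIP1, which encodes NOXA, had 0.98 ± 0.31.

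Of 21 tested interferon-stimulated genes 3 were higher (3.32% of all genes) and 1 lower (1.93%) at an unadjusted p under 0.05, none passed, and the median was 0.055. IFI27 was at 39.1, 15.2, 25.5 and 6.42 CPM in the RMC-4550 tumours and 3.72, 7.50 and 10.3 CPM in the Vehicle tumours (1.51 ± 0.41), and IFI44L at 16.5, 5.79, 2.06 and 1.91 CPM in the RMC-4550 tumours and 0.974, 1.70 and 3.47 CPM in the Vehicle tumours (1.67 ± 0.58). RMC-4550 replicate 1 was the highest of the 10 tumours for both, and without the 2 libraries apart IFI44L had 0.56 ± 0.46. OASL, a sensor-related antiviral gene, was at 2.85, 1.93, 2.72 and 2.75 CPM in the RMC-4550 tumours and 2.00, 4.31 and 14.8 CPM in the Vehicle tumours (−1.42 ± 0.54), the highest value being in Vehicle replicate 1. With the block 6 of the 21 were higher (5.51% of all genes) and 1 lower (4.2%) at that level. B2M, the light chain of MHC class I, was at 1688, 468, 558 and 546 CPM in the RMC-4550 tumours and 322, 339.7 and 754 CPM in the Vehicle tumours (0.99 ± 0.38), with replicate 1 the highest of each group, and without both its groups did not overlap (0.60 ± 0.12). PSMB9, an immunoproteasome subunit, had 1.18 ± 0.47, and the 9 tested MHC class I genes a median of 0.053. No gene had an unadjusted p under 0.05 among 13 inflammatory genes linked to NF-kB (median 0.13), 18 of hypoxia and glycolysis (−0.20), 15 of the ATF4 stress response (0.10) and 11 of heat shock (−0.10). With the block 4 of the hypoxia genes and 3 of the heat shock genes were lower at that level, where 4.2% of all genes were. In the fit without the block the 12 tested YAP and TEAD targets had a median of −0.026, with 1 lower at that level (1.93% of all genes). It was AXL, already named among the receptors. Of 15 genes of fatty acid handling, with a median of −0.16, only CD36 reached that level, in the higher direction (3.32% of all genes).

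Markers of other cell types were summed within each tumour, and none of their genes passed by edgeR. Such sums of markers are scaled to the library total alone, without the TMM factor behind the values of single genes, so a sum can lie slightly below its main member. The sources do not say whether reads of the host were removed, so these values may hold host reads counted as human, which was not tested. The summed level of 13 myeloid markers was 9.12 to 15.3 CPM in the RMC-4550 tumours and 12.1 to 27.6 CPM in the Vehicle tumours, with AIF1 and C1QA at 0 in all 10. LAPTM5, a lysosomal protein of blood cells, was at 0.432, 0.901, 0.957 and 1.34 CPM in the RMC-4550 tumours and 0.807, 5.80 and 8.58 CPM in the Vehicle tumours (−2.55 ± 0.58, edgeR quasi-likelihood adjusted p = 0.434), and 3 other myeloid markers were tested without a p under 0.05. The 12 endothelial markers summed to 87.9 to 117 CPM in the RMC-4550 tumours and 103 to 253 CPM in the Vehicle tumours, with ROBO4 at 0. CLDN5, a tight junction gene that epithelium also expresses, was at 8.64, 36.5, 21.3 and 19.6 CPM in the RMC-4550 tumours and 19.5, 62.2 and 167 CPM in the Vehicle tumours (−1.93 ± 0.60). Of 11 fibroblast markers, at 70.1 to 234 CPM in the RMC-4550 tumours and 22.7 to 311 CPM in the Vehicle tumours with POSTN at 0, COL1A1, a collagen gene, made up most of the sum, at 71.6, 200.3, 187 and 228 CPM in the RMC-4550 tumours and 20.1, 221 and 304 CPM in the Vehicle tumours (−0.25 ± 0.54). The lowest tumour of each group for COL1A1 was replicate 1, and the log2 fold change was 0.65 ± 0.34 with the replicate number as a block. ACTA2 had −1.55 ± 0.49 at 2.29 CPM or less in every tumour. The 10 muscle markers summed to 132 to 197 CPM in the RMC-4550 tumours and 73.0 to 128 CPM in the Vehicle tumours, with MYH1 and MYH2 at 0 in all 10. Most of the sum came from MB and TTN, and the other 8 markers had too few counts to be tested. MB, the myoglobin gene, was at 131, 88.4, 82.2 and 100.4 CPM in the RMC-4550 tumours and 38.7, 49.1 and 82.3 CPM in the Vehicle tumours (0.90 ± 0.22, edgeR quasi-likelihood adjusted p = 0.490). Erythroid markers summed to 0.148 to 0.441 CPM in the RMC-4550 tumours and 0.0743 to 0.717 CPM in the Vehicle tumours, and lymphocyte markers to 0.441 to 1.52 CPM in the RMC-4550 tumours and 0.0866 to 1.61 CPM in the Vehicle tumours.

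Direct tests against the other 3 drugs, in the fit over all 22 tumours and at doses that differ between compounds, compared RMC-4550 with each of them. Against RMC-7977 16 genes passed by edgeR (0.0906%), 10 higher (0.0567%) and 6 lower (0.034%) under RMC-4550. Against cobimetinib 5 passed, all higher (0.0283%). Against trametinib none passed, with 2177 genes at an unadjusted p under 0.05 by edgeR. The median correlation of log2 CPM with the other 21 libraries was 0.751 in Trametinib replicate 4 and 0.933 to 0.977 in the rest. Without that library 105 genes passed against RMC-7977 (0.584%), 67 higher (0.373%) and 38 lower (0.211%). There were then 90 against cobimetinib (0.501%), 69 higher (0.384%) and 21 lower (0.117%), and none against trametinib, where 1273 had an unadjusted p under 0.05. Without the 2 libraries apart 12 genes passed against RMC-7977 (0.0663%), 9 higher (0.0497%) and 3 lower (0.0166%), 2 against cobimetinib, both higher (0.0111%), and none against trametinib, where 3808 had an unadjusted p under 0.05 by edgeR. BMP2 was at 87.8 ± 28.4 CPM under RMC-4550 (mean and SD of 4 tumours here), against 35.1 ± 6.16 CPM under RMC-7977, 37.3 ± 6.30 CPM under trametinib and 50.2 ± 10.2 CPM under cobimetinib. It was higher under RMC-4550 than under RMC-7977 (1.32 ± 0.21, edgeR quasi-likelihood adjusted p = 0.00545), also without the 2 libraries apart (1.37 ± 0.23, adjusted p = 0.0126). The difference missed the threshold for trametinib (1.24 ± 0.21, edgeR adjusted p = 0.0995) and cobimetinib (0.81 ± 0.21, edgeR adjusted p = 0.210). HDAC9 was at 11.7 ± 1.69 CPM under RMC-4550 and 2.79 ± 0.631 CPM under cobimetinib, a difference that passed (2.06 ± 0.37, edgeR quasi-likelihood adjusted p = 0.0497), and at 12.8 ± 2.25 CPM under RMC-7977, which did not differ past the threshold. HDAC9 no longer passed against cobimetinib without the 2 libraries apart (1.95 ± 0.42, edgeR adjusted p = 0.145). DKK1 was likewise higher under RMC-4550 than under cobimetinib, at 113 ± 21.6 CPM under RMC-4550 against 42.7 ± 4.74 CPM under cobimetinib (1.40 ± 0.23). So was STEAP4, a metal reductase, at 325 ± 61.8 CPM under RMC-4550 against 127 ± 29.1 CPM under cobimetinib (1.36 ± 0.21), and edgeR's quasi-likelihood adjusted p was 0.0200 for DKK1 and 0.0138 for STEAP4. With the 2 libraries apart left out DKK1 passed (1.49 ± 0.23, edgeR adjusted p = 0.0226) and STEAP4 did not (1.28 ± 0.22, edgeR adjusted p = 0.0529).

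TSC22D3, a glucocorticoid-induced regulator that FOXO factors also raise, was at 115 ± 18.6 CPM under RMC-4550, against 468 ± 84.7 CPM under RMC-7977 and 121 ± 42.9 CPM under Vehicle. It was lower under RMC-4550 than under RMC-7977 (−2.02 ± 0.28, edgeR quasi-likelihood adjusted p = 0.00426), as was KLF2, at 4.81 ± 1.90 CPM under RMC-4550 against 37.4 ± 12.9 CPM under RMC-7977 (−2.95 ± 0.54, adjusted p = 0.0265). When both libraries apart were left out, TSC22D3 passed (−1.94 ± 0.31, edgeR adjusted p = 0.0126) and KLF2 did not (−2.76 ± 0.54, edgeR adjusted p = 0.0569). PTGS1, which encodes cyclooxygenase 1, was higher under RMC-4550, at 14.7 ± 4.96 CPM against 2.78 ± 0.630 CPM under RMC-7977 (2.39 ± 0.34). HAL, a histidine-degrading enzyme, was at 53.7 ± 5.10 CPM under RMC-4550 and 12.3 ± 3.94 CPM under RMC-7977 (2.12 ± 0.31), and BDNF, a neurotrophin, at 14.0 ± 1.76 CPM under RMC-4550 and 4.21 ± 0.964 CPM under RMC-7977 (1.73 ± 0.26). All 3 had an edgeR quasi-likelihood adjusted p of 0.00426, and passed without the 2 libraries apart, with log2 fold changes of 2.58 ± 0.32 for PTGS1, 2.18 ± 0.33 for HAL and 1.70 ± 0.29 for BDNF. With all 22 tumours no MAPK output gene passed between RMC-4550 and another drug. DUSP6 was at 1.60 ± 0.697 CPM under RMC-4550, 1.42 ± 0.309 CPM under RMC-7977, 2.55 ± 1.79 CPM under trametinib and 5.81 ± 1.33 CPM under cobimetinib. ETV4 was at 4.56 ± 2.29 CPM under RMC-4550 and 0.803 ± 0.357 CPM under RMC-7977 (2.48 ± 0.57, edgeR quasi-likelihood adjusted p = 0.106, and 2.72 ± 0.52 without the 2 libraries apart). Without Trametinib replicate 4, DUSP6 (−1.86 ± 0.34, edgeR quasi-likelihood adjusted p = 0.0174) and SPRY4 (−2.38 ± 0.49, adjusted p = 0.0310) were lower under RMC-4550 than under cobimetinib, and ETV4 was higher than under RMC-7977 (2.48 ± 0.50, adjusted p = 0.0269).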

How the data were processed

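RNA sequencing of 22 H2110 tumours was deposited by the authors as a table of raw read counts per gene, of which the 10 columns of RMC-4550 and Vehicle tumours are used here, with all 22 in named fits. Per the labels' protocols, strand-specific (dUTP) libraries were made from total RNA. Per the submitters' processing notes, build hg38 was used with HISAT2 2.0.5, and fastp and featureCounts 1.5.0-p3 are also named, as are edgeR 3.22.5 and DESeq2 1.20.0. Whether counting used strand, how multiply matching reads were handled, which annotation release was taken and whether host reads were removed is not given in the sources used here. Reads of close gene copies, and of genes with an antisense partner, are therefore uncertain.

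Counts were fitted with edgeR 4.0.16 (R 4.3.3) by the quasi-likelihood test, 2-sided, with TMM scaling and Benjamini-Hochberg adjustment over the 16459 genes kept by a minimum count of 10 (99.754% of counts), at a threshold of 0.05. CPM used TMM library sizes (summed markers the plain library total), and levels on the log2 scale a prior count of 2. The biological coefficient of variation was 0.3184. Alternatives were a mean CPM of 1 or more or no filter, RLE or library size scaling, DESeq2 1.42.0, limma-voom 3.58.1, all 22 tumours, libraries left out, a replicate block, a GC offset, 1 surrogate variable (sva 3.50.0) and glmTreat at 0.5 on the log2 scale. The fits without both libraries apart but with the other 20 tumours, and without both and with a GC offset, were chosen after seeing the data, as were the tests against the other drugs without both. No pair of libraries of the same group looked like a duplicate, since the closest, Vehicle replicates 5 and 7, differed by 12.1 times the Poisson variance. Pairs of an RMC-4550 and a Vehicle library were not part of this check. Counts carry no molecular identifiers, so counting error alone understates the spread.

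Replicate numbers in the labels were checked for pairing. Deviations from the group means correlated between tumours of the same number at 0.745 for number 1, 0.195 for number 2 and 0.187 for number 3. The highest of these comes from the 2 libraries that stood apart. Between different numbers the correlations were −0.5665 to 0.304, a range that holds the values of numbers 2 and 3. As all 3 values were above 0.1, the number was fitted as a block in the alternatives that say so, while the main fit left it out. Among Vehicle tumours the best partner of RMC-4550 replicate 2 was replicate 7 and that of replicate 3 was replicate 5, so of the 3 numbers only number 1 paired best with its own.

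Genes named are the 10 MAPK output genes, PTPN11, RIT1, NRAS, HRAS, MAP2K1, MAP2K2 and GAB1, up to 4 members of each list with the smallest adjusted p, and the largest passing changes, with others said to be named after their values were seen. The members and the gene lists were chosen with earlier results of these data known. Tested on simulated data of 16168 genes made from these 10 libraries, the edgeR fit found 7.46% of genes changed 1.5-fold, 39.1% of those changed 2-fold and 90.8% of those changed 4-fold. It made 94 calls in all, 5 of them false. The simulated counts were drawn independently from the mean of each gene, with a spread set by its level. They held neither the 2 libraries apart nor their GC shift, so these rates may not hold for the real tumours.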

Additional observations from a re-analysis of the deposited data

Results flagged for a closer look

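Among 166 groups examined, which are the RMC-4550 and the Vehicle group for each of 82 genes and for the mean level of the MAPK output genes, 15 had 1 tumour far from the others of its group, and chance gives about 1 in 20. Of the 15, 8 were Vehicle replicate 1 and 3 were RMC-4550 replicate 1, the libraries that stood apart as a whole. In RMC-4550 replicate 1 the RNA of CD36 was at 495.9 CPM, B2M at 1688 CPM and NRAS at 181.6 CPM, each the highest of the treated group. In Vehicle replicate 1 B2M was at 753.5 CPM, NRAS at 169.3 CPM and PTPRR at 66.93 CPM, the highest of the Vehicle group. The same tumour was the lowest of the Vehicle group for COL1A1 at 20.09 CPM, EGR1 at 2.83 CPM, EPHA2 at 25.84 CPM, KRT18 at 310.3 CPM and MAP2K2 at 111.3 CPM. In RMC-4550 replicate 2 SOCS2 was lowest of the treated group at 6.433 CPM, and so was OASL at 1.93 CPM. In Vehicle replicate 2 KRT6A at 49.54 CPM and TFPI2 at 5.728 CPM were the lowest of the Vehicle group.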

How the results depend on the processing

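The number of genes called depended on the tool and on single libraries, against 1 called (0 higher, 1 lower) in the edgeR fit of 10 tumours. It was 9 (7 higher, 2 lower) with no filter, 57 (34 and 23) by DESeq2, 50 (39 and 11) by limma-voom, 5 (3 and 2) with all 22 tumours, 11 (8 and 3) without Trametinib replicate 4, and 17 (11 and 6) with 1 surrogate variable. It was 0 without the 2 libraries apart, also with the other 20 tumours (584 genes at an unadjusted p under 0.05) or a GC offset (1575 genes). Leaving out each replicate in turn gave 0 to 1 called, 0 of them higher and 0 to 1 lower, and DUSP6 was called in 5 of these 10 fits. With the replicate number as a block 15 genes were called (12 higher, 3 lower), 13 (11 and 2) with a GC offset as well, and 0 with the block in all 22 tumours, where 598 genes had an unadjusted p under 0.05 and the edgeR adjusted p of DUSP6 was 0.403. The causes were not tested. The block shared 5 calls with DESeq2, 3 with limma-voom and 1 with the surrogate variable fit.

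The MAPK output difference of −1.50 held its direction in every alternative run, between −1.65 and −1.32 without single tumours, and at −1.55 with a prior count of 0.5, −1.52 with RLE scaling and −1.51 with library size scaling. Of the values of 82 genes under the alternatives, 2090 kept direction and side of the threshold, 82 crossed to passing, 9 crossed to not passing and 31, in 7 genes, changed sign. EREG became 0.041 with the block in 10 tumours and 0.047 in 22, and AREG 0.54 and 0.39 in the same fits and 0.50 with the block and a GC offset. COL1A1 became 0.65, 0.53 and 0.76 in these 3 fits, 0.44 with 1 surrogate variable and −0.50 to 0.0015 without single tumours. COL1A1 and the other 4 lay within 1 SE of 0 in the edgeR fit of 10 tumours. PTPN11 became −0.0088 with the block, −0.054 with a GC offset, −0.068 with both, and −0.0555 to 0.082 without single tumours. HRAS became 0.027 with the block, 0.094 with a GC offset, 0.17 with both and 0.037 with a GC offset and without the 2 libraries apart. MAP2K1 became 0.064 without these libraries, 0.053 with the other 20 tumours, 0.090 with a GC offset as well, 0.000296 with the block and a GC offset, and −0.19 to 0.078 without single tumours. MAP2K2 became 0.084 with a GC offset, 0.0081 with the block as well, 0.0083 with 1 surrogate variable, 0.126 with a GC offset and without the 2 libraries apart, and −0.19 to 0.057 without single tumours. Genes at a few reads per library, such as SPRY4 and LAPTM5, are limited by depth.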

Other observations

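Genes outside the lists had a few further differences, named after their values were seen, and none of them passed by edgeR in the 10 tumours without the replicate block. PTPRR, a tyrosine phosphatase that binds ERK, was at 101, 41.6, 47.7 and 49.7 CPM in the RMC-4550 tumours and 19.8, 26.1 and 66.9 CPM in the Vehicle tumours (0.95 ± 0.36), and without the 2 libraries apart the groups did not overlap (0.95 ± 0.14). MILR1, an immunoglobulin-like receptor of mast cells, was at 2.33, 2.83, 2.21 and 2.89 CPM in the RMC-4550 tumours and 3.15, 7.25 and 23.6 CPM in the Vehicle tumours, with no overlap (−2.10 ± 0.59). AC006059.1, a transcript antisense to another gene, was at 1.99, 1.09, 1.32 and 1.91 CPM in the RMC-4550 tumours and 0, 0.213 and 0.316 CPM in the Vehicle tumours, with no overlap and at most 27 reads in any library. SLC7A11-AS1, antisense to the cystine transporter gene SLC7A11, was at 29.8, 8.75, 13.2 and 12.2 CPM in the RMC-4550 tumours and 0.974, 4.21 and 8.84 CPM in the Vehicle tumours (1.92 ± 0.49). It passed with the replicate number as a block (2.90 ± 0.34, edgeR quasi-likelihood adjusted p = 0.0194). That fit rests on Vehicle replicates 1 to 3, at 0.974 to 3.7 CPM, while Vehicle replicates 5 to 7 were at 4.69 to 8.84 CPM. Without a known counting strand the reads of SLC7A11-AS1 and those of SLC7A11 cannot be told apart.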
